A study of Mus musculus with 8 samples.

Results

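The comparison described here is day 8 (D8) against day 4 (D4) of doxycycline-driven reprogramming of mouse embryonic fibroblasts, the later days of a time course sampled at D2, D4, D6 and D8. Its members are 4 of the 8 RNA-seq libraries in the series, 2 of D4 and 2 of D8, and the 15358 of 32108 genes in the table that reached 1 CPM or more (counts scaled to a library total of 1000000) in at least 2 of the 8 libraries. In all 4 groups the cells were 4F2A fibroblasts from homozygous embryos of 13.5 dpc (days after conception) labelled male, and the titles mark every library as a control. All were kept in KnockOut serum replacement medium with 1000 U/mL LIF and 2 µg/mL doxycycline from day 0, renewed daily, so D4 and D8 differ in days under the drug and in nothing else that the labels give. Cells without doxycycline were not analysed here.

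4F2A cells carry a doxycycline-inducible cassette that makes Pou5f1 (Oct4), Sox2, Klf4 and Myc from 1 transcript, with 2A peptides between the factors. Under these factors fibroblasts are known to lose mesenchymal features, to take on epithelial ones and, in a small share of the cells, to activate the endogenous pluripotency network. Counts per gene do not separate cassette transcripts from those of the endogenous copies, which limits what the levels of the 4 factors can show.

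The libraries held 19409936 to 20161021 counted reads each, so 3 reads, the lowest level read as detection here, correspond to 0.149 to 0.155 CPM. Over all tested genes the distance between a D4 and a D8 library on the log2(CPM + 1) scale was 57.5 to 62.2, against 19.6 between the 2 D4 libraries and 19.1 between the 2 D8 libraries. The male label goes against the data in all 8 libraries: Xist, the RNA made from the inactive X chromosome, was at 702 to 1238 CPM, and 4 Y-linked genes summed to 0.221 to 0.539 CPM against 874 to 944 CPM for their X-linked copies. Nothing in the labels says whether a day's 2 libraries are separate cultures, so the p-values measure only the spread between these libraries, which may be technical.

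Between D4 and D8, 4710 genes rose and 2813 fell in limma at an adjusted p under 0.05, which is 30.7% and 18.3% of the genes tested and 49.0% together. These shares are the background against which every count below stands, and 8526 genes had an unadjusted p under 0.05. Large changes were mostly rises: 904 genes rose and 210 fell at least 2-fold in mean CPM, and 279 rose and 18 fell at least 4-fold. Of the 904, 328 had both D4 libraries below 1 CPM, and of the 210, 45 had both D8 libraries below it. CPM values share a fixed total, and the median change of all tested genes was 0.073 on the log2 scale. After median-of-ratios scaling, which moved that median to -0.001, 3403 genes rose and 3785 fell, and the share of called genes that rose went from 62.6% to 47.3%. After quantile normalization, which moved it to -0.016, 3432 rose and 3947 fell, a share of 46.5%.

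**Figure D1:**
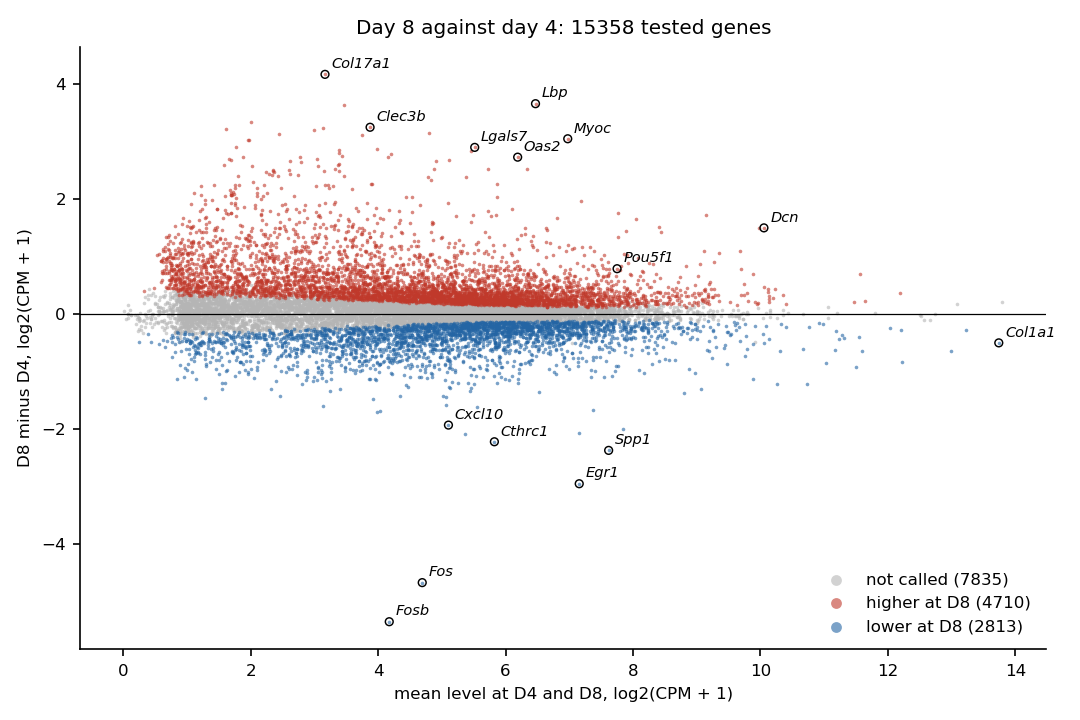
Change from D4 to D8 (vertical, log2(CPM + 1)) against the mean level of D4 and D8 (horizontal, same scale) for the 15358 tested genes, 1 point each; red genes rose (4710), blue genes fell (2813) and grey genes were not called. Circled genes are named in the text: Col17a1 stands highest at 4.16 and Fosb lowest at -5.36.

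The D6 libraries, which do not enter the difference, lay between the 2 days for most large changes. The D6 mean was between the D4 and D8 means for 828 of the 904 genes that rose at least 2-fold and for 199 of the 210 that fell. The D2 mean was below that of D4, by any amount, in 743 of the 904 large rises and above it in 161. In 328 of the 904 both D4 libraries were below 1 CPM, where the order of D2 and D4 rests on few reads. Among the large falls the D2 mean was below that of D4 in 106 and above it in 104. These orders were not tested, and their share over all tested genes was not counted. Protein-coding genes fell more often than the other biotypes, which are mainly long noncoding RNAs and pseudogenes. Of 13530 protein-coding genes 30.7% rose and 20.2% fell, and of 1828 others 30.2% rose and 4.1% fell. After quantile normalization 17.1% of the others rose and 12.8% fell, against 23.1% and 27.4% of the protein-coding genes.

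The steepest falls were in immediate-early genes, which growth factor and stress signals switch on within minutes. Fosb (chr7:19302696-19310051, GRCm38), an AP-1 subunit, was at 105 and 124 CPM at D4 and at 1.49 and 2.15 CPM at D8, a change of -5.36 ± 0.13 (SE, log2(CPM + 1), adjusted p = 2.8e-11). Fos (chr12:85473890-85477273), its close relative, went from 129 and 131 CPM to 4.07 and 4.15 CPM (-4.68 ± 0.11, adjusted p = 2.8e-11). Egr1, a zinc-finger factor induced by the same signals, went from 394 and 399 CPM to 48.8 and 51.6 CPM (-2.96 ± 0.08, adjusted p = 5.2e-11). In all 3 the libraries of the 2 days lay far apart, and D4 was the high point of the course rather than the start of a decline. Fos stood at 2.43 and 3.44 CPM at D2 and at 4.97 and 4.96 CPM at D6, and Egr1 at 54.4 and 44.7 CPM at D2 and at 45.4 and 41.5 CPM at D6. Fosb was already at 37.99 and 31.92 CPM at D2 and had fallen to 2.26 and 1.79 CPM by D6.

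Of 32 tested genes on a list of AP-1 and immediate-early genes, 23 fell and 1 rose, with a median change of -0.61 against 0.073 for all tested genes. Zfp36, which promotes decay of cytokine mRNAs, went from 84.3 and 82.7 CPM to 18.7 and 19.2 CPM (-2.09), and Dusp1, which switches off MAP kinases, from 81.7 and 81.4 CPM to 29.2 and 22.5 CPM (-1.63). Junb (-1.37), Ier2 (-1.35), Ier3 (-1.28), Nr4a1 (-1.14) and Jun (-0.64) fell less steeply. The 1 member that rose was Myc (0.55), which the cassette also encodes. Jund, the AP-1 subunit known for its steady expression, was at 112 and 107 CPM at D4 and at 119 and 108 CPM at D8 (0.05, adjusted p = 0.43).

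Promoter windows of 250 bases before the first listed RefSeq start (GRCm38.p6) were available for 10963 of the 15358 tested genes and for 24 of the immediate-early list. They were searched on both strands for 13 short motifs. The site of the EGR factors (GCGNGGGCG) was in 29.2% of the 24 windows against 8.83% of all windows, and the CArG box of serum response factor (CC, 6 bases of A or T, GG) in 12.5% against 1.19%. Neither the AP-1 site (TGANTCA) nor the interferon-stimulated element (GAANNGAAA) was in any of the 24. The windows below show 1 EGR site in Fosb and the 2 kinds of site in Zfp36, as examples from members that fell steeply. No EGR site or CArG box was found for Fos, but whether Fos was among the 24 is not given here. The window of Egr1 was not inspected on its own, and Egr1 may be among the 24. Each window shown is written 5′ to 3′ on the gene's strand, which is the minus strand, with the motif in capitals.
Fosb, chr7:19310067-19310115: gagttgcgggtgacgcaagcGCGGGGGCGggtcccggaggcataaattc
Zfp36, chr7:28379305-28379353: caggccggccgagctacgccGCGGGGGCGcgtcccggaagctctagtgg
Zfp36, chr7:28379257-28379306: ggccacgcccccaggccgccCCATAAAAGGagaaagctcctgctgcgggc
A match describes the letters in the window and does not show that a factor was bound there.

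**Figure D2:**
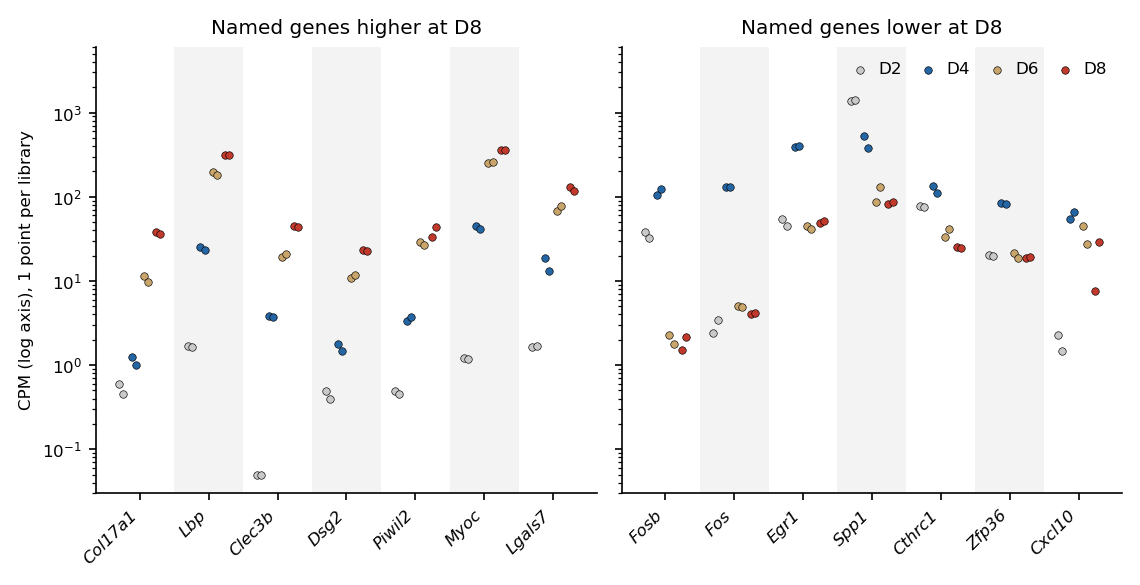
CPM in each of the 8 libraries (log axis, 1 point per library, coloured by day) for 7 genes that rose and 7 that fell between D4 and D8. Fos, Egr1 and Zfp36 are highest at D4, whereas Col17a1, Lbp and Myoc climb at each later day.

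The largest rise of the comparison was in Col17a1 (chr19:47646344-47692094), a transmembrane collagen of the hemidesmosomes that hold basal epithelial cells to their basement membrane. It was at 1.25 and 1.00 CPM at D4 and at 38.1 and 35.8 CPM at D8 (4.16 ± 0.12, adjusted p = 8.2e-11). Over the 28 tested integrin and laminin genes 7 rose and 16 fell. Among the laminin chain genes, Lama3 went from 5.17 and 6.67 CPM to 30.1 and 33.4 CPM (2.25) and Lamb3 from 18.4 and 19.4 to 37.0 and 35.1 CPM (0.90). Among those that fell, Lamb1 went from 706 and 734 to 337 and 362 CPM (-1.04) and Lamc1 from 704 and 755 to 424 and 506 CPM (-0.65). Integrins moved both ways as well. Itga3 (0.99) and Itga2 (0.66) rose, while Itga4 (-1.27), Itgb3 (-0.93) and the fibronectin receptor subunit Itga5 (-0.75) fell, and Itgb4, the hemidesmosome's own beta subunit, was not called (0.07, adjusted p = 0.28).

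The epithelial list had a median change of 0.86, and 18 of its 27 tested members rose while 1 fell. Ehf, an epithelial ETS factor, went from 16.3 and 14.9 CPM to 125 and 107 CPM (2.82 ± 0.14, adjusted p = 1.2e-08), and Krt8, a keratin of simple epithelia, from 30.3 and 21.4 CPM to 134 and 116 CPM (2.25). Elf3, another epithelial ETS factor, went from 1.02 and 1.53 CPM to 6.41 and 11.7 CPM (2.10). Cdh1, which encodes E-cadherin, went from 17.9 and 19.3 CPM to 32.4 and 40.7 CPM (0.93 ± 0.12, adjusted p = 3.4e-05); the D6 libraries, at 35.0 and 39.5 CPM, lay in the range of D8. The 1 epithelial member that fell was Cdh3, or P-cadherin (-0.82). Of the 18, 6 had both D4 libraries below 1 CPM and passed the filter through later days, and 12 listed genes stayed under it. Among those 12 were defining genes of epithelium: Epcam was at a mean of 0.05004 CPM at D4 and 0.796 CPM at D8, and Krt18, the partner keratin of Krt8, at 0.0250 and 0.335 CPM.

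Genes of stratified epithelium, listed as markers of another cell type, moved beside the epithelial list: 10 of 17 tested members rose, 1 fell, and the median change was 0.51. Of the 10, 2 had both D4 libraries below 1 CPM. Dsg2, a desmosomal cadherin, went from 1.77 and 1.48 CPM to 23.3 and 22.8 CPM (3.20 ± 0.11, adjusted p = 4.6e-10), and Lgals7, a galectin of keratinocytes, from 18.83 and 12.99 CPM to 130 and 116 CPM (2.89). Serpinb5 (1.97), which was below 1 CPM until D6 and passed the filter through D8, and Sprr1a (1.33) also rose. Of the keratins that define basal keratinocytes, Krt14 was at 34.9 and 23.3 CPM at D4 and at 34.0 and 27.9 CPM at D8 (0.11, adjusted p = 0.56), and Krt5 was under the filter at means of 0.223 and 0.419 CPM. The summed level of the list was 317 to 358 CPM at D4 and 630 to 679 CPM at D8. Its part in the other results was not tested, and in bulk RNA a change in the number of cells of a type cannot be told apart from a change in RNA per cell.

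**Figure D3:**
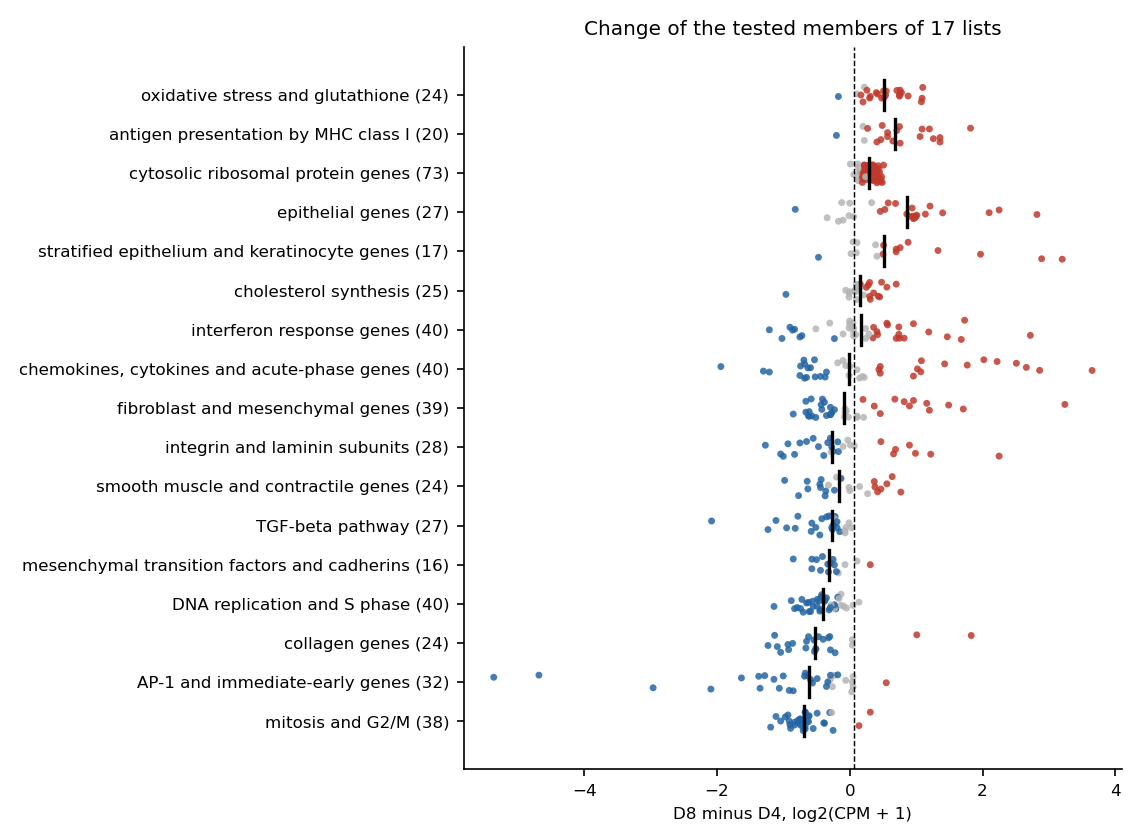
Change from D4 to D8 (horizontal, log2(CPM + 1)) of the tested members of 17 gene lists, 1 point per gene, with the number tested in brackets; red rose, blue fell, grey was not called, black bars are list medians and the dashed line is the median of all tested genes (0.073). Mitosis genes lie almost wholly to the left (median -0.69) and MHC class I genes to the right (median 0.68), while the interferon, acute-phase and fibroblast lists spread to both sides.

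Of 16 tested genes on the list of mesenchymal transition factors and cadherins, which also holds Fn1, 12 fell and 1 rose, with a median of -0.30 and values from -0.85 (Fn1) to 0.31. Snai2 went from 29.3 and 30.3 CPM to 19.8 and 19.7 CPM (-0.57), and Zeb1 from 178 and 176 CPM to 152 and 146 CPM (-0.25). Zeb2, a close relative of Zeb1, was the member that rose, from 58.3 and 58.7 CPM to 73.0 and 72.6 CPM (0.31). Snai1 (-0.17) and Twist1 (-0.07) were not called, Snai1 being called lower without D4 replicate 1 (-0.30, adjusted p = 0.005) and after median-of-ratios scaling (-0.25, adjusted p = 0.026). Vim, which encodes vimentin, fell by 0.41 from 3566 and 3314 CPM to 2655 and 2516 CPM, and Cdh2, or N-cadherin, fell by 0.33.

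Ligand, receptor and target genes on the TGF-beta list fell, and targets outside the list were not counted with them. Of 27 tested members 21 fell and 0 rose in limma, with a median of -0.27; at an unadjusted p under 0.05 the counts were 22 and 0. All 3 ligand genes fell: Tgfb3 went from 226 and 251 CPM to 110 and 109 CPM (-1.11), Tgfb1 fell by 0.78 and Tgfb2 by 0.51. The receptor gene Tgfbr2 fell by 0.26; Tgfbr1 fell by 0.15, a call lost without any 1 of the 4 libraries (adjusted p = 0.055 to 0.21). Thbs1, which activates latent TGF-beta, went from 2565 and 2615 CPM to 1043 and 1174 CPM (-1.23), and Smad7, the inhibitory Smad that the pathway itself induces, from 18.9 and 19.8 CPM to 9.89 and 9.23 CPM (-0.95). The target Ccn1 (chr3:145646976-145649981), a matrix-associated signalling protein, went from 284 and 301 CPM to 65.8 and 71.1 CPM (-2.08 ± 0.06, adjusted p = 5.3e-11). Ccn1 is also a textbook target of YAP and TEAD factors, and its promoter window held the TEAD site (GGAATGT), read here from the opposite strand.
Ccn1, chr3:145650063-145650109, minus strand: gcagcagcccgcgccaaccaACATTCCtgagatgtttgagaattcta
That site was in 2.35% of all windows. Of 22 tested genes of the neighbouring BMP pathway 8 fell and 3 rose: Bmp4 fell by 0.93 and the antagonist Grem1 by 0.81, and Id4, an inhibitor of DNA-binding factors, rose by 1.02.

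Collagen genes fell together. Of 24 tested, 20 fell and 2 rose, with a median of -0.52, and their summed level went from 51438 and 55704 CPM at D4 to 34124 and 38330 CPM at D8. At D2 that sum was 33588.5 and 33744.6 CPM, so D4 was above D2 as well as D8. Col1a1 went from 14714 and 18029 CPM to 10932 and 11929 CPM (-0.51 ± 0.11, adjusted p = 0.002), the largest loss of CPM of any gene, and Col12a1, a fibril-associated collagen, from 1822 and 1944 CPM to 733 and 873 CPM (-1.23). Fn1, or fibronectin, went from 5909 and 6886 CPM to 3258 and 3822 CPM (-0.85) and Fbn2, a microfibril protein of embryonic tissue, from 422 and 501 CPM to 108 and 120 CPM (-2.00). Col8a2 (1.83) and Col15a1 (1.01) were the collagens that rose. Col3a1 fell by 0.29, but its call was lost after quantile normalization (-0.05, adjusted p = 0.52) and without D8 replicate 1 (-0.18, adjusted p = 0.13), and also with no filter and in a fit on D4 and D8 alone (adjusted p = 0.13 in each).

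Other matrix genes of fibroblasts rose at the same time, so that the fibroblast list of 39 tested genes split into 12 that rose and 19 that fell. Dcn, which encodes the small proteoglycan decorin, went from 647 and 620 CPM to 1809 and 1754 CPM (1.49 ± 0.06, adjusted p = 1.5e-09). Dpt, or dermatopontin, went from 22.97 and 24.87 CPM to 79.7 and 81.6 CPM (1.71), and Clec3b, or tetranectin, from 3.85 and 3.71 CPM to 44.4 and 43.6 CPM (3.24). The microfibril-associated Mfap4 (1.20) and Mfap5 (1.16), Lum (0.90), Pi16 (0.82) and Gsn (0.68) also rose. The proteoglycan genes Bgn (-0.66) and Aspn (-0.61), the fibulin gene Fbln2 (-0.62) and Pdgfrb (-0.58) fell, whereas Pdgfra rose (0.37). Thy1, the surface marker whose loss is used to follow reprogramming, was at 422 and 365 CPM at D4 and at 396 and 378 CPM at D8 (-0.02, 95% interval -0.17 to 0.13, adjusted p = 0.82), and the libraries overlapped.

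Of 24 tested smooth muscle and contractile genes 7 rose and 11 fell. Among the 11 that fell, Vcl, or vinculin, went from 220 and 235 CPM to 111 and 118 CPM (-0.98), and Tpm1 (-0.64), Actn1 (-0.63) and Flna (-0.44) fell as well. Among the 7 that rose, Acta2, or smooth muscle actin, went from 517 and 507 CPM to 752 and 628 CPM (0.42), and Tagln (0.47), Cnn1 (0.56) and Actg2 (0.64) rose as well, while Csrp1, a LIM protein of smooth muscle, was not called (-0.00, adjusted p = 0.99). Spp1, the secreted phosphoprotein osteopontin, went from 525 and 375 CPM to 82.5 and 86.7 CPM (-2.38), and Cthrc1, a secreted protein of matrix-producing fibroblasts, went from 133 and 111 CPM to 25.4 and 24.9 CPM (-2.23).

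All 4 reprogramming factors rose. Pou5f1 went from 156 and 170 CPM to 277 and 286 CPM (0.78 ± 0.05, adjusted p = 1.1e-07), Myc from 478 and 500 to 712 and 722 CPM (0.55), Sox2 from 141 and 148 to 204 and 212 CPM (0.52), and Klf4 from 406 and 435 to 590 and 596 CPM (0.50). No D4 library reached a D8 library in any of them. At D6 Pou5f1 was at 276 and 285 CPM, within reach of its D8 libraries, and Sox2 was at 226 and 222 CPM, above them.

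The endogenous pluripotency network stayed largely below the filter: 14 of 38 listed genes were tested, of which 6 rose and 5 fell. Nanog was under it, at 0.302 and 0.317 CPM at D4 and at 0.378 and 0.569 CPM at D8. Zfp42 (Rex1) had means of 0.0376 and 0.231 CPM, and Esrrb means of 0.0250 and 0.0515 CPM, below the level of 3 reads at D8. The members that rose were Tfcp2l1, a factor of the naive network, from 0.649 and 1.05 CPM to 7.81 and 8.24 CPM (2.29), Gdf3, a TGF-beta family ligand, from 1.503 and 1.003 CPM to 7.95 and 7.95 CPM (2.00), the RNA-binding gene L1td1, from 47.2 and 43.9 CPM to 116 and 110 CPM (1.29), and Fbxo15 (1.14), Tdh (0.83) and Rif1 (0.44). Klf2 (-1.22), Tbx3 (-0.51), Sall1 (-0.49), Trim28 (-0.27) and Stat3 (-0.18) fell. Of the 13 tested germline and piRNA genes 4 rose, 1 of them from below 1 CPM in both D4 libraries, and 1 fell. After quantile normalization 3 rose and 4 fell, so no direction is given for the list. Piwil2, an Argonaute-family protein of the piRNA pathway, went from 3.35 and 3.76 CPM to 33.3 and 43.2 CPM (3.10 ± 0.12, adjusted p = 1.5e-09).

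Antigen presentation by MHC class I rose nearly throughout the list, with 17 of 20 tested members higher, 1 lower and a median of 0.68. H2-K1, a classical class I heavy chain, went from 39.3 and 32.0 CPM to 131 and 125 CPM (1.82 ± 0.20, adjusted p = 9.9e-06). Its partner B2m went from 503 and 406 CPM to 964 and 922 CPM (1.06), H2-D1 from 90.4 and 74.9 to 193 and 187 CPM (1.20), and the immunoproteasome subunit Psmb8 from 5.77 and 4.41 to 10.1 and 8.5 CPM (0.76). Tap1, a peptide transporter, was the member that fell, from 63.8 and 60.2 CPM to 54.1 and 53.9 CPM (-0.20), and its call was lost without any 1 of the 4 libraries (adjusted p = 0.06 to 0.19). The D6 libraries differed from each other in these genes, B2m being at 413 and 726 CPM and H2-K1 at 47.8 and 90.4 CPM. Windows of the class I list held the interferon-stimulated element in 6 of 17, or 35.3%, against 5.12% of all windows. The share was 27.6% of the 29 windows of the interferon list. In H2-K1, H2-D1, H2-Q4, H2-Q6 and H2-Q7 the element had the same letters in near-identical flanks, so the 6 are not separate matches. The window of H2-K1 is shown as an example from the largest rise of the list, with the element read from the opposite strand.
H2-K1, chr17:34000409-34000457, minus strand: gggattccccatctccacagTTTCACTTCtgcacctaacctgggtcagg
H2-Q4, H2-Q6 and H2-Q7 rose too (1.36, 1.36 and 1.26), but they are near-identical copies whose reads the counting may have split.

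Interferon response genes did not move as 1 group: 17 of 40 rose, 8 fell and 15 were not called, with a median of 0.17. Oas2, a sensor of double-stranded RNA, went from 32.3 and 22.9 CPM to 190 and 181 CPM (2.72 ± 0.24, adjusted p = 1.2e-06), and Oas3 (1.47), Zbp1 (1.19) and Irf7 (0.74) rose with it. Oas1a (1.68) and Oas1g (1.73) rose as well, and are near-identical copies. Among the 8 that fell, Ifit2, which encodes an interferon-induced RNA-binding protein, went from 57.2 and 65.2 CPM to 17.3 and 38.3 CPM (-1.21), Oasl1 from 9.84 and 10.7 to 2.52 and 7.79 CPM (-1.02), Mx1 from 32.6 and 39.2 to 12.99 and 26.84 CPM (-0.90) and Rsad2 from 41.6 and 41.8 to 16.7 and 35.3 CPM (-0.75). In each of these 4, D8 replicate 1 was well below D8 replicate 2, while neither reached the D4 libraries. Without D8 replicate 1 the change of Ifit2 was -0.66 (adjusted p = 0.0045), and the calls of Oasl1 (-0.36, adjusted p = 0.11), Mx1 (-0.40, adjusted p = 0.23) and Rsad2 (-0.24, adjusted p = 0.5) were lost. Those of Oasl1 (adjusted p = 0.056), Mx1 (0.096) and Rsad2 (0.12) were also lost without D4 replicate 2, and that of Rsad2 without D4 replicate 1 (0.1). Isg15 (-0.01) was not called. The call of Irf7 was lost without D4 replicate 2 (adjusted p = 0.13) and without either D8 library (0.073 and 0.082). The counts rest on single libraries to some extent: 9 rose without D4 replicate 2 and 10 without D8 replicate 2, and 4 fell without D8 replicate 1. With robust variance estimation 4 fell, and with no filter on low values 9 rose and 3 fell; the calls of Ifit2, Oasl1, Mx1, Rsad2 and Irf7 were all lost under both (adjusted p = 0.051 to 0.24), and those of Mx1 and Rsad2 also with a pseudocount of 0.1 (0.19 and 0.18).

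Secreted mediators of inflammation moved both ways. Of 40 tested genes on their common list 15 rose and 16 fell, with a median of -0.00. Lbp (chr2:158306493-158332852), the lipopolysaccharide-binding protein, went from 25.02 and 22.96 CPM to 317 and 310 CPM (3.65 ± 0.06, adjusted p = 1.6e-12), having been at 1.69 and 1.64 CPM at D2. The complement genes C4b (2.86), Cfb (2.66) and C3 (2.02), the serum amyloid gene Saa3 (2.51), Lcn2 (2.22) and the haptoglobin gene Hp (1.77) rose as well; Cfb shares exon sequence with an overlapping gene model on the same strand. Cxcl10, an interferon-induced chemokine, went from 55.1 and 66.0 CPM to 7.50 and 28.9 CPM (-1.94 ± 0.40, adjusted p = 0.0015), again with D8 replicate 1 the lower (-1.03 without it), and its call was lost with no filter (adjusted p = 0.055) and with robust variance estimation (adjusted p = 0.074). Ptgs2, the inducible cyclooxygenase, went from 69.2 and 66.6 CPM to 26.1 and 27.9 CPM (-1.30), and Ccl2 (-0.74), Ccl7 (-0.69), Mmp3 (-0.68), Cxcl1 (-0.52) and Lif (-0.53) fell. Chemokines were not all lower, since Ccl8 (1.43), Ccl11 (1.07) and Cxcl14 (0.46) rose.

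**Figure D4:**
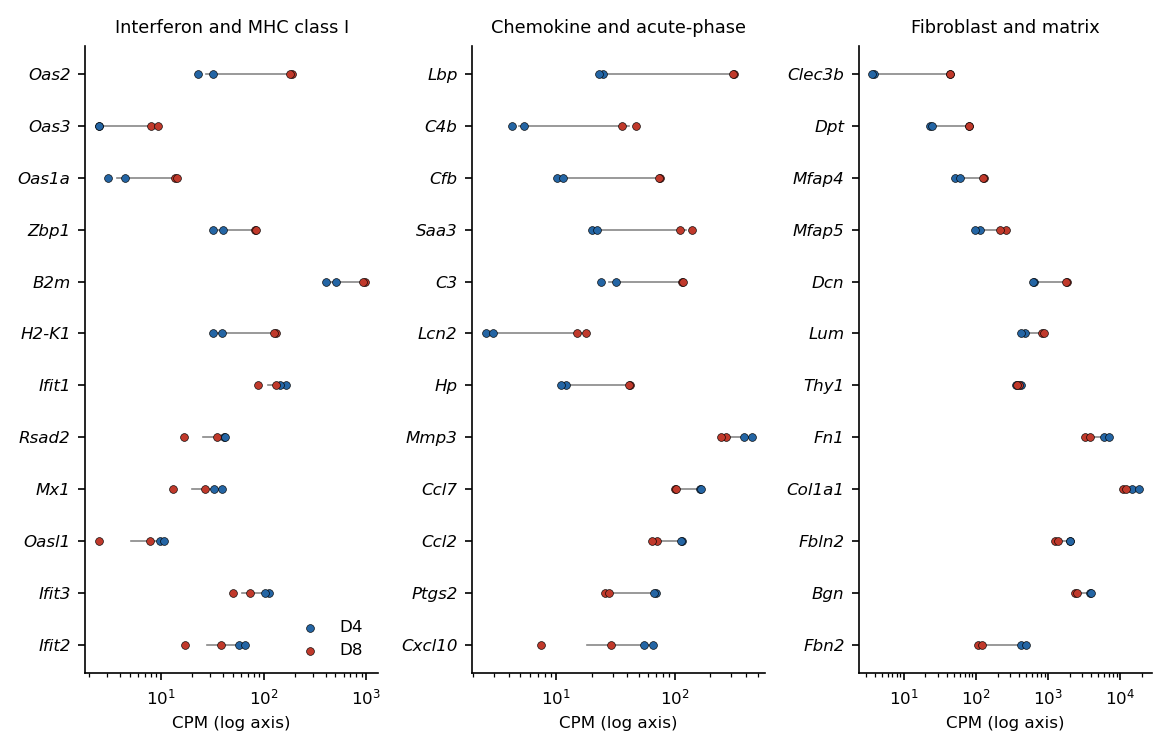
CPM (log axis) at D4 (blue) and D8 (red), 1 point per library, with a line between the means, for 12 genes each of interferon response and MHC class I, of chemokines and acute-phase proteins, and of fibroblast matrix. Red lies to the right of blue for Oas2, Lbp and Clec3b and to the left for Ifit2, Cxcl10 and Fbn2, and the 2 red points of Ifit2, Oasl1 and Cxcl10 lie far apart.

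Markers of macrophages, which fibroblast cultures can carry and which express many of these genes, fell more often than they rose. Of 20 tested markers 2 rose and 9 fell, with a median of -0.40, and their summed level was 166 to 171 CPM at D4 and 130 to 149 CPM at D8. Mrc1 (-0.85), C1qb (-0.65) and Cd68 (-0.58) fell, Itgam (0.57) and Laptm5 (0.30) rose, the call of Itgam being lost without D8 replicate 2 (adjusted p = 0.051) and that of Laptm5 without D4 replicate 1 (0.11) or either D8 library (0.07 and 0.072), and Csf1r (-0.13) and Ptprc (0.05) were not called. The count of falls was 5 without D8 replicate 2 and 5 with no filter, and the part of these cells in the other results was not tested.

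Proliferation genes fell in near unison. Of 38 tested genes of mitosis and G2/M, 35 fell and 2 rose, with a median of -0.69, and of 40 genes of DNA replication 30 fell and 0 rose in limma, with a median of -0.41 (33 and 0 at an unadjusted p under 0.05). The mitosis list summed to 1330.4 and 1326.0 CPM at D2, 1723.9 and 1930.5 CPM at D4, and 1094.3 and 1237.9 CPM at D8. The replication list summed to 1042.3 and 1016.1 CPM at D2, 1351.7 and 1397.0 CPM at D4, and 968.6 and 1016.6 CPM at D8. In both, D4 was above D2 as well as D8. Foxm1, which drives the transcription of mitotic genes, went from 47.8 and 59.0 CPM to 21.3 and 24.2 CPM (-1.19 ± 0.10, adjusted p = 8.8e-07). The mitotic kinase genes Plk1 and Aurkb fell by 1.11 and 1.04. Rrm2, a subunit of ribonucleotide reductase, went from 104 and 111 CPM to 44.1 and 52.5 CPM (-1.14), and the replicative helicase gene Mcm5 fell by 0.88. Top2a went from 168 and 195 CPM to 111 and 115 CPM (-0.67), whereas Pcna was at 75.6 and 77.1 CPM and then at 73.3 and 70.5 CPM (-0.09, adjusted p = 0.32). The 2 mitosis members that rose were Pttg1 (0.31) and Bub3 (0.14), and neither was called after median-of-ratios scaling or quantile normalization, or without either D8 library. The call of Pttg1 was also lost without D4 replicate 2 (adjusted p = 0.3) and that of Bub3 without D4 replicate 1 (adjusted p = 0.23). The 25 cell cycle inhibitors and p53 targets had 6 rises and 11 falls: Mdm2 fell by 0.61, Cdkn2a, which encodes p16 and p19ARF, rose by 0.43, and Cdkn1a, or p21, was not called (837 and 834 CPM, then 835 and 822 CPM). These counts depend on single libraries, since 7 fell without D4 replicate 1, and 3 rose and 7 fell without D8 replicate 2.

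The CCAAT box, bound by NF-Y and common in cell cycle promoters, was in 75.0% of the 32 windows of the mitosis list. It was in 61.3% of the 31 of the replication list, against 36.6% of all windows. High shares were not particular to lists that fell. The box was in 88.2% of cholesterol synthesis windows and 70.6% of MHC class I windows, from lists with more rises than falls. The class I share includes the alike windows of H2-K1, H2-D1, H2-Q4, H2-Q6 and H2-Q7, so its matches are not all separate. It was in 50% of collagen windows, and in 26.7% to 34.5% of those of the TGF-beta, ribosomal protein, immediate-early and interferon lists. The windows of Plk1 and Mki67 are shown because both genes fell and differ in how many boxes they hold, Mki67 carrying 3 in its window, of which 1 is in capitals. Mki67 went from 186 and 249 CPM to 120 and 162 CPM (-0.62), a change of -0.41 without D4 replicate 2 and of -0.40 without D8 replicate 1.
Plk1, chr7:122159401-122159434, plus strand: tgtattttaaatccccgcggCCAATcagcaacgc
Mki67, chr7:135716496-135716540, minus strand: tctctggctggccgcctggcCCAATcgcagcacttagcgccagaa
The box was in 36.4% of the windows of genes that rose at least 2-fold and in 35.1% of those that fell at least 2-fold. The AP-1 site was in 9.88% of the former and 7.14% of the latter, against 4.53% of all windows, and the EGR site was in 37 of 648 and in 20 of 154, against 8.83% of all windows.

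Ribosomal protein genes rose by small amounts, 63 of 73 rising and 0 falling in limma (65 and 0 at an unadjusted p under 0.05). Their median change was 0.29, with values from 0.01 to 0.51, the highest being that of Rps29. Their summed level was 25531 and 21978 CPM at D4 and 29812 and 27773 CPM at D8. The number that rose was 45 after median-of-ratios scaling, 58 after quantile normalization and 36 with no filter. Their median was 0.21 after median-of-ratios scaling. With 1 library left out it ranged from 0.17 (without D4 replicate 2) to 0.39 (without D4 replicate 1). Antioxidant and glutathione genes rose by more, 21 of 24 with 1 fall and a median of 0.51. The metallothionein genes Mt1 and Mt2 went from 115 and 113 to 248 and 236 CPM (1.08) and from 58.5 and 62.5 to 132 and 129 CPM (1.10), Nqo1 rose by 0.75 and Hmox1 by 0.54, and Txnrd1 fell by 0.17. Of 25 cholesterol synthesis genes 12 rose and 1 fell, with Fdft1, or squalene synthase, at 0.70. Of 48 nuclear genes of the respiratory chain 19 rose at a median of 0.14, but only 8 did with median-of-ratios scaling and 10 with quantile normalization. Without D4 replicate 2 the count was 6, without D8 replicate 1 it was 7, in a fit on D4 and D8 alone 11 and with no filter 9. Of 13 mitochondrially encoded genes 2 rose and 1 fell; 5 rose after quantile normalization, and 4 without D8 replicate 2. mt-Co3 went from 2548 and 2224 CPM to 4088 and 3604 CPM (0.69).

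The glycolysis list had 7 rises and 5 falls among 24, and the hypoxia list 9 and 5 among 24. Epas1, which encodes HIF-2 alpha, went from 59.2 and 64.6 CPM to 196 and 202 CPM (1.67). Egln3, a HIF target, went from 20.1 and 18.8 CPM to 83.3 and 51.0 CPM (1.70) and Aldoc from 1.45 and 1.66 CPM to 14.9 and 7.38 CPM (2.18). In both, D8 replicate 1 was the higher of the D8 pair. The number of hypoxia genes that fell was 3 without D4 replicate 1 and 3 without D8 replicate 1, and that of glycolysis genes 3 without D8 replicate 2.

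Hox genes, which mark position along the body axis and in the limb by their order within 4 clusters, divided by paralogue number. The cut between numbers 9 and 10 was not planned, and it lies where the calls change direction in these same data. No gene numbered 1 or 2 was called, and of those numbered 9 only Hoxc9 was. Of 25 tested genes with numbers 1 to 9, 13 rose and 0 fell in limma (15 and 0 at an unadjusted p under 0.05). Of 8 with numbers 10 to 13, 6 fell and 0 rose, also at an unadjusted p under 0.05. Hoxd12 went from 10.9 and 11.7 CPM to 5.20 and 4.97 CPM (-1.01 ± 0.10, adjusted p = 2.5e-06), Hoxd13 from 62.5 and 63.4 CPM to 48.9 and 41.2 CPM (-0.48) and Hoxa13 from 21.02 and 19.05 CPM to 13.6 and 12.1 CPM (-0.61). Hoxa5 went from 14.03 and 14.79 CPM to 25.2 and 26.3 CPM (0.80), Hoxb6 from 6.69 and 7.87 to 13.4 and 13.9 CPM (0.83) and Hoxc4 from 9.69 and 9.58 to 16.5 and 19.3 CPM (0.83). The division ran through all 4 clusters for the rises, while the falls were in Hoxa and Hoxd. Outside Hoxa and Hoxd the only tested gene numbered 10 to 13 was Hoxc10, so the other clusters could hardly show a fall there. Hoxc10 was not called (-0.16), but was called lower after quantile normalization. After quantile normalization 10 of the lower-numbered genes rose and 1 fell, and 7 of the higher-numbered genes fell. Transcripts overlap within Hox clusters, and whether reads were counted by strand is not given in the sources used here, so single values carry that uncertainty.

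**Figure D5:**
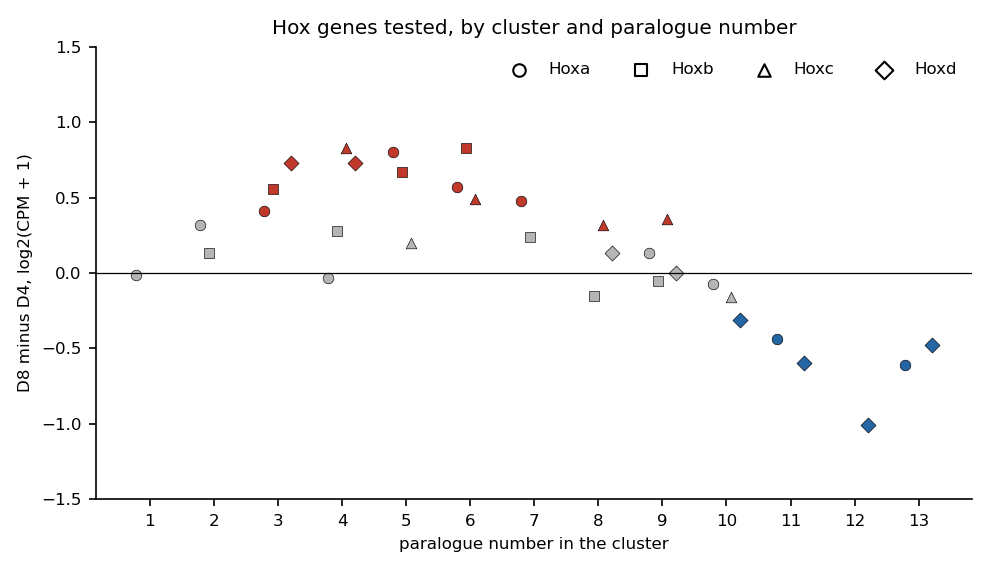
Change from D4 to D8 (vertical, log2(CPM + 1)) of the 33 tested Hox genes by paralogue number (horizontal), with a marker shape per cluster; red rose, blue fell and grey was not called. The red points lie between numbers 3 and 9, and the blue points between 10 and 13, with Hoxd12 lowest at -1.01.

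Several genes with large changes belong to none of these groups. Myoc (chr1:162639155-162649693), the secreted glycoprotein myocilin, went from 44.6 and 41.3 CPM to 361 and 358 CPM (3.04 ± 0.06, adjusted p = 1.6e-12), having been at 1.22 and 1.20 CPM at D2; an antisense gene overlaps its exons. Mme, which encodes the membrane peptidase neprilysin, went from 317 and 305 CPM to 1058 and 994 CPM (1.72), and Aldh3a1, an aldehyde dehydrogenase of surface epithelia, from 636 and 565 CPM to 1714 and 1635 CPM (1.48). Tspan8, a tetraspanin, went from 9.84 and 7.02 CPM to 86.1 and 76.1 CPM (3.14). Cyp4a10, a fatty acid hydroxylase with near-identical copies, was at 0 and 0.0166 CPM at D4, below the level of 3 reads, and at 8.92 and 7.82 CPM at D8. The kallikrein genes Klk1 and Klk11 were at 0.1997 to 0.5515 CPM at D4 and at 9.63 to 13.2 CPM at D8. Igf2r, the imprinted receptor that clears IGF2, went from 814 and 879 CPM to 316 and 368 CPM (-1.31), and its ligand gene Igf2 from 1496 and 1709 CPM to 1006 and 1015 CPM (-0.66). Tet2, a DNA demethylase, rose by 0.78 while the maintenance methyltransferase gene Dnmt1 and its partner gene Uhrf1 fell by 0.65 and 0.62. The list of DNA methylation and demethylation genes had no common direction. Of its 16 tested members 5 rose, 4 fell and 7 were not called, with a median of -0.00. After median-of-ratios scaling 2 rose and 5 fell.

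Lists of markers of other cell types that such cultures could hold were also counted. Of 12 tested neural genes 4 rose, 2 of them from below 1 CPM in both D4 libraries, and 4 fell. Sox1, an early neural factor, was at 0.250 and 0.150 CPM at D4 and at 4.48 and 8.33 CPM at D8 (2.58). Of 8 tested endothelial genes 4 rose, 2 of them from below 1 CPM in both D4 libraries, and 1 fell; 4 rose and 3 fell after median-of-ratios scaling, and 3 rose and 4 fell after quantile normalization. Of 7 tested adipocyte genes 5 rose and 0 fell in limma (5 and 0 at an unadjusted p under 0.05), with a median of 0.56, and the summed level of the list was 161 to 170 CPM at D4 and 243 to 245 CPM at D8. Of 5 muscle genes 1 rose, and of 11 cartilage and bone genes 6 rose and 4 fell. Of 9 tested trophoblast and extraembryonic endoderm genes 4 rose, 1 of them from below 1 CPM in both D4 libraries, and 1 fell. That list summed to 5453 and 5602 CPM at D4 and to 4410 and 4809 CPM at D8. The part of these markers in the other results was not tested. Beside the lists above, 11 of 27 genes of the unfolded protein and ATF4 response fell and 5 rose, 8 and 8 of 27 Wnt pathway genes moved each way, and 12 of 39 Polycomb and histone modifier genes fell while 8 rose. Without D4 replicate 2 these counts were lower, with 3 rises in the ATF4 list, 5 falls in the Wnt list and 7 in the Polycomb list; without D8 replicate 1, 7 Polycomb genes fell, and without D8 replicate 2, 3 ATF4 genes rose. Exons of other gene models overlap those of many named genes, whose values may then include reads of the overlapping gene. The overlap is on the same strand for Col3a1, Foxm1, Igf2, Itgam, Pdgfra, Sox1, Spp1, Tfcp2l1, Top2a, Zeb2, mt-Co3 and Xist, as for Cfb. It is on the opposite strand for Actn1, Aspn, Bmp4, Cdkn1a, Col15a1, Csf1r, Cxcl10, Dsg2, Dusp1, Elf3, Fbn2, Fdft1, Fn1, H2-Q4, Id4, Irf7, Itga4, Itgb4, Jun, Junb, Jund, Krt5, Krt8, Lama3, Mfap4, Mt2, Oasl1, Pi16, Plk1, Pou5f1, Psmb8, Stat3, Tagln, Tap1, Tbx3, Tdh, Tet2, Tgfb2, Tgfb3, Thbs1, Tspan8, Vcl, Zeb1 and Zfp36, and on both for Igf2, Pdgfra, Xist and Zeb2.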

How the data were processed

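Total RNA from 8 libraries, 2 each of D2, D4, D6 and D8, was sequenced on a BGISEQ-500, per the labels' protocols. Per the submitters' processing notes, Trimmomatic 0.39, featureCounts and the mm10 build were used; the aligner, its settings and the strandedness of counting were not stated there. The authors deposited CPM (counts scaled to a fixed library total): each library sums to 1000000, although the table calls them TPM, so they are not corrected for gene length. The values are multiples of 0.01 read and 52.8 to 54.3% are whole reads, so no count test was run. IDs were matched to GENCODE M21 (32063 of 32108 with a symbol).

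Genes that reached 1 CPM in 2 or more of the 8 libraries were fitted as log2(CPM + 1) in limma 3.58.1 (R 4.3.3), with a coefficient per day over all 8 libraries, trended empirical Bayes and Benjamini-Hochberg adjustment over 15358 genes, called at an adjusted p under 0.05. Folds on this scale understate changes of low genes. The script was tested on simulated data. Named genes are the 15 largest rises and 15 largest falls among called genes of at least 5 CPM whose libraries did not overlap, without unnamed models and pseudogenes, the 5 largest gains and losses of CPM, up to 3 called members per list and the most abundant ones, and 8 fixed genes; 88 others were chosen after their values were seen, to show the spread within lists. Lists and members were chosen with earlier results of these data known. Replicate numbers share only a number, so the main fit has no block. Lists are described by counts and medians. Promoters and motifs came from RefSeq (GRCm38.p6) and were matched by symbol. Alternatives covered the pseudocount, filter, scaling, samples fitted, block, variance estimation and each library of D4 and D8 left out.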

Additional observations from a re-analysis of the deposited data

How the results depend on the processing

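Counts of genes that rose and fell stayed within 1.5 times of 4710 and 2813 under every alternative run: 4619 and 2787 with a pseudocount of 0.1, 4357 and 2451 with no filter on low values (25416 genes), 4676 and 2801 with the filter on D4 and D8 alone (15013 genes), 4200 and 2502 in a fit on D4 and D8 alone, 4700 and 2797 with robust variance estimation, and the values given above for the scalings. Leaving out 1 library gave 3541 to 4567 rises and 2175 to 2576 falls. With the replicate number as a block, 4853 rose and 2891 fell, and every named call kept its side; D4 and D8 libraries of the same number correlated at 0.207 in their deviations from the day means, other pairs of days at -0.102 to 0.042. Of 268 named genes that were called, 233 kept call and direction in every alternative. Hsp90ab1, called lower (-0.16, adjusted p = 0.035), turned to 0.06 (adjusted p = 0.36) after quantile normalization; the cause was not tested. With 2 libraries per day and this depth, changes near 0.1 on the log2 scale and genes under 1 CPM are poorly resolved.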

Other observations

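Long noncoding RNAs of the nucleus rose more often than they fell, 8 of 15 tested against 1, with a median of 0.17. Neat1, the scaffold of paraspeckles, went from 233 and 213 CPM at D4 to 424 and 399 CPM at D8 (0.88 ± 0.05, limma, adjusted p = 7.0e-08), and Miat from 493 and 487 CPM to 716 and 692 CPM (0.52). Kcnq1ot1, the imprinted antisense RNA of the Kcnq1 locus, went from 25.8 and 25.3 CPM to 54.3 and 44.1 CPM (0.91). H19 was at 3484 and 3642 CPM and then at 3706 and 3477 CPM (0.01, adjusted p = 0.89), with overlapping libraries. Exons of other gene models overlap those of Neat1, Miat, H19 and Ncl on the same strand, and those of Kcnq1ot1, Ctsb and Sqstm1 on the opposite one. The count of rises was 4 without D4 replicate 2. Among 23 imprinted genes 8 rose and 6 fell, Dlk1 rising from 6.29 and 7.82 CPM to 14.1 and 19.8 CPM (1.15).

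Of 30 lysosome and autophagy genes 12 rose and 7 fell, but 7 rose and 13 fell after median-of-ratios scaling, so no direction is given for the list. Psap and Ctsb, a lysosomal activator protein and protease, went from 836 and 853 to 530 and 589 CPM (-0.60) and from 831 and 846 to 577 and 578 CPM (-0.54), while the autophagy receptor gene Sqstm1 went from 256 and 239 to 361 and 347 CPM (0.51). Of the unfolded protein and ATF4 response list, in which 11 of 27 fell and 5 rose at a median of -0.04, Trib3 went from 12.98 and 9.576 to 4.89 and 4.10 CPM (-1.15), Psat1 from 156 and 143 to 92.0 and 90.9 CPM (-0.70) and Slc3a2 from 136 and 134 to 95.5 and 93.1 CPM (-0.51). Of 32 ribosome biogenesis genes and MYC targets 10 rose and 6 fell, against 2 and 9 after median-of-ratios scaling; 3 rose without D4 replicate 2, and 5 rose and 3 fell without D8 replicate 1. Odc1, a textbook MYC target, fell from 77.1 and 78.1 to 54.1 and 52.7 CPM (-0.53) and Cad from 122 and 153 to 89.3 and 97.6 CPM (-0.54), while Ncl was at 754 and 758 and then at 820 and 849 CPM (0.14, adjusted p = 0.026), a call lost without D4 replicate 1 (0.056), D4 replicate 2 (0.055) or D8 replicate 2 (0.11).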
